A study of Mus musculus with 7 samples.

Results

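The genes described here were 10 immediate early and AP-1 family genes of the mouse: Fos, Fosb, Fosl1 and Fosl2, Jun, Junb and Jund, Atf3, Egr1 and Klf6. The data were ATAC-seq peak lists, which record where the Tn5 transposase found accessible DNA, from Lgr5+ intestinal stem cells. A peak was taken as belonging to a gene of the set when its summit lay in the body of that gene, or when that gene was the nearest protein-coding gene within 50 kb in the mm10 RefSeq annotation. Under this rule 526 of the 531679 peaks on chromosomes 1 to 19 and X belonged to the 10 genes, out of 21631 annotated protein-coding genes. Peaks that overlapped by at least 1 bp across libraries were merged, and the 526 peaks fell into 86 of the 103809 merged regions.

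AP-1 is a dimer of basic leucine zipper proteins, built from a Fos or Atf protein paired with a Jun protein or from Jun proteins alone, and it binds DNA at short palindromic sites. Fos, Jun, Egr1 and their relatives are called immediate early genes because growth factor, cytokine and stress signals switch them on through kinases and pre-bound factors without new protein synthesis. In the intestinal epithelium they are known for their response to injury and to mitogens.

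All recipients were female B6-GFP-Lgr5 mice aged 8 to 12 weeks, in which GFP reports Lgr5, a marker of crypt base stem cells, and all had been lethally irradiated before bone marrow transplantation. The 4 Allo libraries came from recipients of BALB/c marrow, the allogeneic setting of graft-versus-host disease, and the 3 Syn libraries came from syngeneic recipients. Every library held 50000 sorted Lgr5+ cells from a pool of 3 to 4 mice taken on day 7, and the labels describe the pools as biologically independent samples. Because both groups were irradiated and transplanted, neither shows these genes in unperturbed crypts, and a pool gives no value for single mice. The comparison asks whether the accessible regions at these 10 genes differed between the settings in presence, in position and in rank.

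The lists held 71925, 73668 and 76438 peaks in the Syn libraries and 62977, 76091, 88861 and 81719 in the Allo libraries. Read depth was not given in these files, so the lists were compared through ranks: each peak received the percentile of its deposited −log10 q-value within its own library, where 100 is the strongest end. Median peak width was 499 to 510 bp in the Syn libraries and 449 to 477 bp in the Allo libraries, and the peaks of Allo 3 and Allo 4 were named in a different way from those of the remaining 5. Whether these lists were called in the same way as the others is not known, which bears on every Allo rank and presence value. Any pair of libraries held 65.5% to 82.8% of its regions in common, so no list was a copy of another. The 5 intestinal stem cell markers examined, Lgr5, Olfm4, Ascl2, Smoc2 and Axin2, each had a region over the gene start in all 7 libraries. None of the 6 leukocyte markers examined had one in any library. All 5 markers of other epithelial cell types had one in all 7. The gene start of Dclk1, a tuft cell marker, stood at 25.5 ± 17.5 (SD, n = 3) in Syn and 59.7 ± 13.4 (SD, n = 4) in Allo, with a limma adjusted p of 0.242. Every Allo library ranked above every Syn library there. Muc2 (goblet cells) differed by 15.3 points and Alpi (enterocytes) by -11.2 points, Allo minus Syn, with overlapping groups. Among the stem cell markers, every Allo library ranked above every Syn library at Ascl2, with means of 85.5 and 78.7. At Olfm4 every Allo library ranked below, with means of 76.1 and 82.6. The limma adjusted p was 0.347 at Ascl2 and 0.413 at Olfm4. Of all gene starts held by all 7 libraries, 8.30% had every Allo library above every Syn library and 2.42% had every one below. The part of these differences in the results below was not tested.

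RefSeq promoter entries (GRCm38.p6, the mm10 assembly) were matched for 8 of the 10 genes. The 4 upstream sequences below are shown because the Fos and Fosb start regions separated the groups, the Jun start region is the matching case in the partner family, and Jund had no region over its annotated start. Each runs 5′ to 3′ on the strand of its gene over the 250 bases before the start, and capitals mark TGACG, TGANNTCA, GCGNGGGCG and TATAAA.
Fos, chr12:85473640-85473889, plus strand: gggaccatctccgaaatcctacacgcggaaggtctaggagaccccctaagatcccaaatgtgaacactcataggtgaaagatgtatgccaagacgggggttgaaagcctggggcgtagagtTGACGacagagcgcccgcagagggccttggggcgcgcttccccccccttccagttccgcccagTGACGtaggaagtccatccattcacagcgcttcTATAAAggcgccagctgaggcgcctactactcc
Fosb, chr7:19310046-19310295, minus strand: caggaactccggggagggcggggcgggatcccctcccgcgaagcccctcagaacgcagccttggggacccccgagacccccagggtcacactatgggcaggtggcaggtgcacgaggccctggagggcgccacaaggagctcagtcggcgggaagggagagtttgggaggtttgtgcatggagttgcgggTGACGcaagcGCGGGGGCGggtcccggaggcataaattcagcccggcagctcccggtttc
Jun, chr4:95052223-95052472, minus strand: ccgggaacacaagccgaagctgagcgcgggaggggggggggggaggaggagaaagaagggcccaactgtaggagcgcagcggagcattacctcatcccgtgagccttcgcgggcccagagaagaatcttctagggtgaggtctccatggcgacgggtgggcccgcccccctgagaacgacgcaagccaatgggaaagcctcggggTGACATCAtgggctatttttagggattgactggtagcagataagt
Jund, chr8:70697489-70697738, plus strand: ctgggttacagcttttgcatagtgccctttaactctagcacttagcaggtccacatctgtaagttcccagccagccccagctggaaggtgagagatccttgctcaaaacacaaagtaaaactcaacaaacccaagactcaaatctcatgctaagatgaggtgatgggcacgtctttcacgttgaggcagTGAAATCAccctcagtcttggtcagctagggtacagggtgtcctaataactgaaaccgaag
The Fos sequence held TGACG, the core of the cyclic AMP response element, at bases 129 to 125 and 66 to 62 before the start, and TATAAA at bases 33 to 28. The Jun sequence held TGACATCA, a variant of the AP-1 site, at bases 45 to 38. In the Fosb sequence TGACG lay at bases 60 to 56 and GCGGGGGCG, a match to the EGR site, at bases 50 to 42. The Jund sequence held TGAAATCA at bases 61 to 54 and had a G and C content of 47.6%, against 58.4% in Fos, 61.2% in Jun and 68.8% in Fosb.

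Motifs were searched on both strands of the 300-base promoter windows, which run from 250 bases before the start to 50 bases after it. TGANTCA, the consensus AP-1 site, was found in none of the 8 windows and in 7.04% of all 21045 promoters. The full element TGACGTCA was likewise in none of them, against 2.26% of all promoters. The relaxed form TGANNTCA, which includes TGACGTCA, lay in 3 windows, those of Jun, Jund and Klf6, against 12.6% of all promoters. TGACG lay in 4, those of Fos, Fosb, Junb and Atf3, against 23.8%. GCGNGGGCG lay in Fosb and Fosl2, against 7.60%, and TATAAA in Fos and Junb, against 12.7%. The CArG box, the site of serum response factor, had no match in the 8 windows and was in 1.54% of all promoters. GGGCGG, the GC box, which overlaps the EGR match in Fosb, lay in 6 windows, against 46.7%. A match describes these letters in this window only.

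The number of peaks around the 10 genes overlapped between the settings. The genes had 75, 76 and 75 peaks in the Syn libraries and 72, 75, 79 and 74 in the Allo libraries, a mean of 75.3 ± 0.577 (SD, n = 3) against 75.0 ± 2.94 (SD, n = 4). Per 10000 peaks of the library this came to 10.2 ± 0.328 in Syn and 9.81 ± 1.16 in Allo. The 4 Allo values spanned the 3 Syn values in both measures. Of the 86 regions 59, or 68.6%, were held by all 7 libraries, and of all merged regions 48.5% were.

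No region of these genes was held by all Allo and no Syn libraries, a pattern found in 1.14% of all merged regions. None was held by all Syn and no Allo libraries either, a pattern found in 1.01%. Of the 27 regions missing from at least 1 library, 6 were held by all Syn and 1 to 3 Allo libraries, 3 by all Allo and 2 Syn libraries, 5 by no Syn library and 1 by no Allo library. Of the 5 without a Syn library, 4 were held by Allo 3 alone, at Fos, at Egr1 and 2 at Fosl2, and 1 by Allo 4 alone, at Atf3. Their percentiles ran from 0.279 to 23.2. The region without an Allo library lay 11.3 kb downstream of the Jun start, at chr4:95040794-95041300, and stood at 22.0 in Syn 1 and 2.66 in Syn 2. These 27 regions were mostly low in rank: the highest percentile that each reached in any library had a median of 22.6, and the highest of all was 72.4.

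Of the regions held by all 3 Syn libraries, the one held by the fewest Allo libraries lay 31.8 kb downstream of the Klf6 start, at chr13:5892776-5893395. It stood at 28.4, 40.4 and 24.3 in Syn and was held in Allo by Allo 3 alone, at 34.2. A region in the body of Atf3 at chr1:191176934-191177297 stood at 33.2, 30.7 and 41.9 in Syn. In Allo it was held by Allo 2 at 13.7 and Allo 4 at 13.8. Atf3, a stress-induced member of the Atf family that can repress as well as activate, had another such region 20.4 kb upstream of its start, at chr1:191203564-191203916. There the Syn libraries stood at 43.9, 58.6 and 54.1, and of the Allo libraries Allo 2 stood at 38.6 and Allo 3 at 28.2. Upstream of Jun, at chr4:95082283-95082863, the Syn values were 46.1, 29.97 and 35.7, and Allo 3 and Allo 4 stood at 17.7 and 47.6. The opposite case lay 24.2 kb downstream of the Fos start, at chr12:85497363-85498238, where Syn 1 and Syn 2 stood at 20.7 and 9.8 and the Allo libraries at 34.1, 19.2, 72.4 and 46.2. Within the group that held such a region in full, the percentiles were low or middling, apart from Allo 3 at the Fos region.

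The gene starts were accessible in both settings, and none passed the test between them. A region covered the annotated start of Fos, Fosb, Jun, Junb, Atf3, Fosl2 and Klf6 in all 7 libraries. For Fosl1 and Egr1, which have no start in the promoter table, the best ranked region over an end of the gene body was used and was also present in all 7. The mean percentile over all 7 libraries was highest at Klf6, at 93.4 ± 2.06 (SD, n = 7). Atf3 followed at 87.5 ± 0.972, Fosl1 at 85.8 ± 4.73, Egr1 at 85.7 ± 3.91, Fos at 80.9 ± 4.67, Jun at 78.0 ± 3.53 and Fosb at 73.6 ± 5.72. Junb at 48.0 ± 4.72 and Fosl2 at 27.6 ± 13.1 stood lowest. From Atf3 down to Fosb each gene differed from its neighbour in this order by less than the sum of their SDs. Klf6 stood above Atf3, Fosb above Junb and Junb above Fosl2 by more than that sum.

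**Figure D1:**
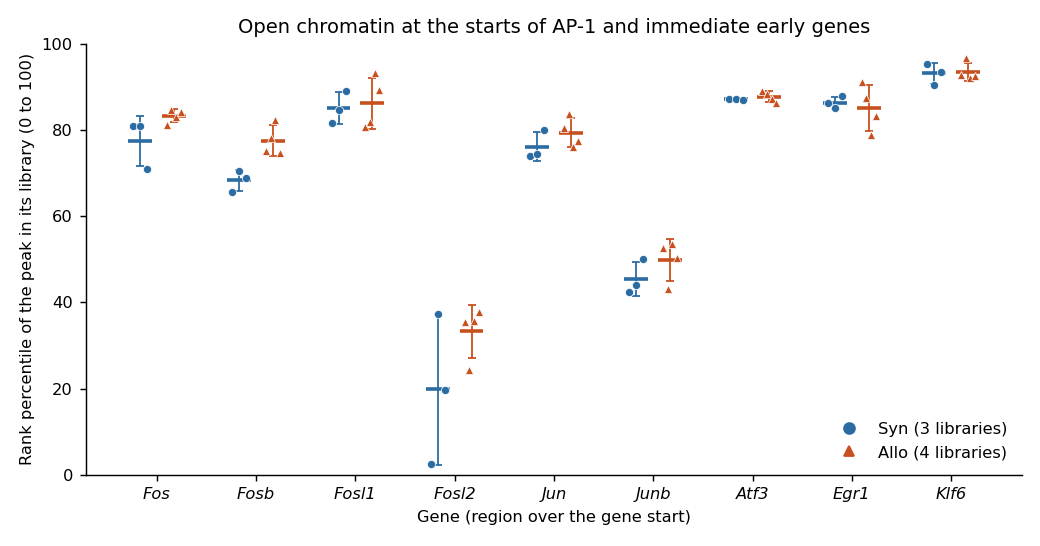
Within-library percentile of the −log10 q-value (vertical axis) at the gene-start region of 9 genes, with circles for the 3 Syn and triangles for the 4 Allo libraries, thick lines for group means and bars for SD. At Fos and Fosb every Allo point lies above every Syn point, and at the other 7 genes the points of the groups overlap.

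Among the Fos family starts, Fosb and Fos ranked higher in every Allo library than in any Syn library. Fosb, an inducible Fos protein that pairs with Jun proteins, stood at 65.6, 70.5 and 68.9 in Syn and at 75.1, 78.2, 82.3 and 74.7 in Allo, over chr7:19309932-19310632. The means were 68.3 ± 2.49 and 77.6 ± 3.52, a difference of 9.26 points, with a limma adjusted p of 0.349 and an exact permutation p of 0.0286. Fos, the prototype of the family, stood at 80.9, 80.9 and 70.9 in Syn and at 81.2, 84.6, 83.1 and 84.3 in Allo, over chr12:85473319-85474667. The lowest Allo value exceeded the highest Syn value by less than 1 point, and Syn 3 stood lowest. The mean difference was 5.76 points, or 2.41 points without Syn 3, with a limma adjusted p of 0.514 and an exact permutation p of 0.0286. No smaller p is possible with the 35 ways of dividing 7 libraries into 3 and 4. Groups apart in this direction occurred at 8.30% of the 11522 gene-start regions held by all 7 libraries, so 2 of 9 genes is a count to read against that share. Only 0.00868% of those regions, a single one, passed limma at an adjusted p of 0.05, and none of the 9 did. The limma unadjusted p was under 0.05 at 1 of the 9, and at 7.03% of all gene starts.

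Fosl1 and Fosl2 encode Fos proteins that lack the strong activation domain of Fos. At Fosl1 the Syn values of 81.8, 84.7 and 89.1 lay within the Allo range of 80.8, 81.9, 93.2 and 89.2. At Fosl2 the start was weak and uneven, with 2.4, 37.3 and 19.7 in Syn and 35.5, 24.2, 35.8 and 37.8 in Allo. Its mean difference of 13.5 points was smaller than the Syn SD of 17.5 points, and its limma adjusted p was 0.458. It was 4.81 points without Syn 1, 22.3 without Syn 2, 6.10 with ranks among shared regions and 0.176 ranked by fold. A stronger region lay 0.66 kb upstream, at chr5:32134954-32136144, with means of 75.6 ± 1.56 in Syn and 79.4 ± 2.02 in Allo and a limma adjusted p of 0.647.

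The Jun family starts overlapped between the groups. Jun, the main partner of Fos, stood at 74.0, 74.5 and 80.0 in Syn and at 80.5, 83.7, 76.1 and 77.5 in Allo, a difference of 3.28 points with a limma adjusted p of 0.729. Junb, a Jun protein that can restrain Jun, stood at 42.4, 44.1 and 49.98 in Syn and at 52.7, 43.0, 53.6 and 50.2 in Allo, with a limma adjusted p of 0.747. Jund, which is expressed more constantly than its relatives, had no region over its annotated start. Its nearest strong region, chr8:70698296-70699789, lay in the gene body with its summit 1.05 kb downstream of that start. It stood at 76.5, 79.4 and 74.6 in Syn and at 81.8, 79.6, 78.4 and 80.1 in Allo, a difference of 3.15 points with a limma adjusted p of 0.707.

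Atf3 is a leucine zipper factor and Egr1 and Klf6 are zinc finger factors outside the Fos and Jun families. Their starts stood at 78.9 or higher in every library. The median percentile over all gene starts held by all 7 libraries was 89.1, and over the 9 starts it was 80.9. Atf3 stood at 87.3, 87.3 and 86.9 in Syn and at 89.1, 88.5, 87.2 and 86.3 in Allo. Egr1, a factor that binds GC-rich sites, stood at 86.2, 85.1 and 87.9 in Syn and at 91.2, 87.4, 78.9 and 83.2 in Allo, a difference of -1.20 points. Klf6, a Krüppel-like factor, stood at 95.3, 90.6 and 93.6 in Syn and at 92.8, 96.7, 92.1 and 92.6 in Allo. The limma adjusted p-values of these 3 genes were 0.916, 0.953 and 0.940. Over the 9 starts the mean percentile was higher in Allo at 8 and lower at 1, where 63.7% of all gene starts were higher. The median difference was 3.28 points, against 0.622 points over all gene starts. Regardless of sign, the median size of the difference was 3.28 points over the 9 starts and 1.56 points over all gene starts. The median size was larger at the 9 starts, which ranked lower at the median, and starts of like rank were not compared.

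Over all 59 regions held by every library, the median differences were near those over all shared regions. The median percentile was 68.1, against 64.7 over all 50324 such regions of the genome. The median Allo minus Syn difference was 0.613 points against 0.437, and the mean was higher in Allo at 34 regions and lower at 25. That was 57.6% higher, against 54.1% of all shared regions. Regardless of sign, the median size of the difference was 3.80 points, against 4.38 points over all shared regions. None of the 59 passed limma at an adjusted p of 0.05, a level reached by 0.0755% of all shared regions, 0.0616% higher and 0.0139% lower in Allo. At an unadjusted limma p under 0.05 there were 9, or 15.3%, against 13.8% of all shared regions. In 6 regions every Allo library ranked above every Syn library, and that was so in 8.06% of all shared regions. In 5 regions every Allo library ranked below, against 6.58% of all. These 11 regions were a share of 10.2% and 8.47% of the 59, near the background in both directions. The count of 6 became 11 without Allo 1 and 10 without Syn 2, fewer libraries being easier to separate. The 15 regions at a start or in a body had a median difference of 3.15 points and the 44 outside a body of 0.308 points. The same split over all shared regions was not computed, so this contrast has no background.

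**Figure D2:**
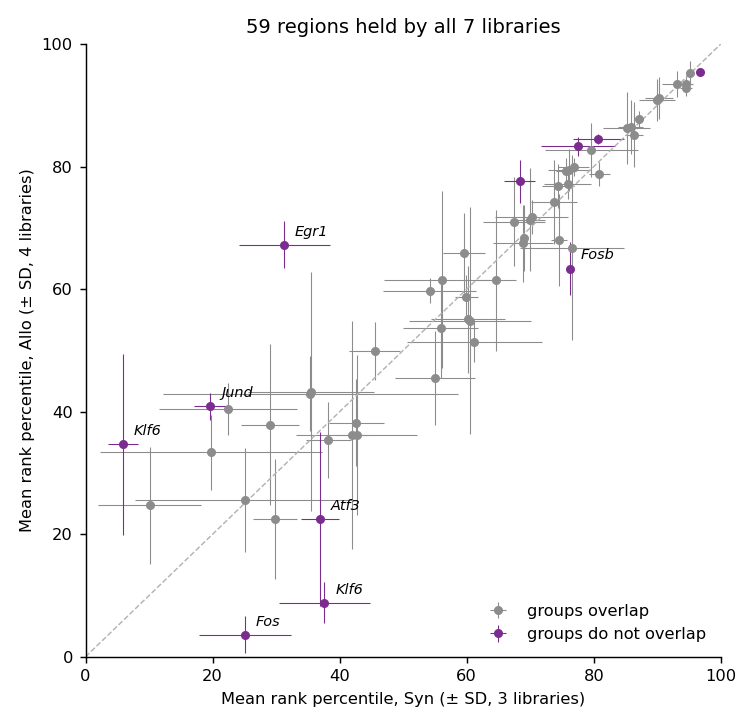
Mean within-library percentile in the 3 Syn libraries (horizontal axis) against the mean in the 4 Allo libraries (vertical axis) for the 59 shared regions of the 10 genes, with bars for SD, purple points where the groups do not overlap and the dashed line of equality. The region 15.2 kb from Egr1 lies farthest above the line, at 31.3 and 67.2, and a region downstream of Klf6 farthest below it, at 37.6 and 8.85.

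The widest separation lay 15.2 kb from the body of Egr1, in a region with no annotated gene at chr18:34879957-34881100, whose next protein-coding gene, Etf1, was 22.6 kb away. It stood at 38.2, 23.9 and 31.8 in Syn and at 65.5, 72.5, 67.4 and 63.6 in Allo. All 4 Allo libraries ranked far above all 3 Syn libraries. The means were 31.3 ± 7.14 and 67.2 ± 3.82, a difference of 35.9 points. On the logit scale of the fit, the difference was 2.20 ± 0.33 log2 odds (SE), with a limma adjusted p of 0.0613 and an exact permutation p of 0.0286. The deposited fold enrichment of the same peaks was higher in every Allo library. It was 4.81, 4.10 and 4.69 in Syn and 6.65, 8.28, 6.97 and 7.08 in Allo. The median fold of whole lists was 4.75 to 5.11 in the Syn libraries and 4.94 to 5.67 in the Allo libraries. By fold rank, the difference was 29.9 points with a limma adjusted p of 0.178. The peak was 671 bp wide on average in Syn and 929 bp in Allo, with an exact permutation p of 0.0286, although Allo peaks were narrower over the whole lists. The same permutation p for width occurred at other shared regions of these genes, and its share over all shared regions was not computed. Width, fold and rank come from the same peak calls, so width and fold are not separate evidence. Ranked among shared regions only, the limma adjusted p was 0.0392, and with the percentile itself in place of its logit it was 0.0439. Over the settings in which the libraries all held the region, which leaves out the 50% coverage rule, it ran from 0.0274, with a trended spread chosen after seeing the data, to 0.225.

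The 2 regions with the next largest higher rank in Allo lay at Klf6 and Jund. The Klf6 region, chr13:5913117-5914005, lay 51.8 kb downstream of the start and 42.9 kb from the body. It stood at 3.35, 6.33 and 8.11 in Syn and at 15.9, 48.2, 44.6 and 30.1 in Allo, with a limma adjusted p of 0.101 and an exact permutation p of 0.0571. Its Allo values were widely spread, with Allo 1 nearest to the Syn libraries. The Jund region, chr8:70700558-70700983, lay 0.12 kb past the end of the gene and 0.58 kb from Iqcn. It stood at 20.02, 22.0 and 16.9 in Syn and at 41.6, 42.9, 41.1 and 37.8 in Allo, a difference of 21.2 points and of 1.51 ± 0.28 log2 odds (SE), with a limma adjusted p of 0.0847. The Jund difference was 0.647 points when peaks were ranked by fold enrichment, and the limma adjusted p was 0.0439 with the percentile in place of its logit. With matched list length the Jund region was not held by every library. Ranked among shared regions, the Klf6 difference was 13.4 points with a limma adjusted p of 0.0259, and without Allo 1 and Allo 2 the p was 0.0468. Over all settings that gave a value it reached 0.294, and the region was not in every library at the stricter threshold or with matched list length.

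The largest lower rank in Allo lay at the far side of Klf6, 56.0 kb downstream of its start, at chr13:5917302-5917747 within the annotated lncRNA Gm46401. It stood at 35.9, 31.4 and 45.5 in Syn and at 5.77, 13.3, 9.13 and 7.17 in Allo. The means were 37.6 ± 7.20 and 8.85 ± 3.29, a difference of -28.7 points and -2.69 ± 0.40 log2 odds (SE), with a limma adjusted p of 0.0592 and an exact permutation p of 0.0286. Its peak was 384 bp wide on average in Syn and 233 bp in Allo. Ranked among shared regions only, the difference was -15.0 points and the limma adjusted p was 0.0280, and without Allo 1 and Allo 2 it was 0.0413. It reached 0.216 with the replicate number as a block, and this region too was not in every library at the stricter threshold or with matched list length. The 2 distal Klf6 regions were close neighbours and separated the groups in opposite directions.

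A region 8.80 kb upstream of the Fos start, at chr12:85464680-85465241, stood at 29.7, 28.8 and 16.7 in Syn and at 1.28, 0.788, 6.07 and 6.28 in Allo. In Allo it was among the weakest peaks of each list. The difference was -21.5 points and -3.65 ± 0.79 log2 odds (SE), with a limma adjusted p of 0.122 and an exact permutation p of 0.0286. Ranked among shared regions only, the difference was -7.61 points, and at the stricter threshold or with matched list length the region was not in every library. It lay in the opposite direction to the Fos start itself. In the body of Atf3, 12.7 kb downstream of the start at chr1:191170495-191170830, the Syn values were 37.4, 33.7 and 39.6 and the Allo values 1.83, 28.8, 33.5 and 25.9, with a limma adjusted p of 0.530. Allo 3 came within 1 point of Syn 2 there.

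**Figure D3:**
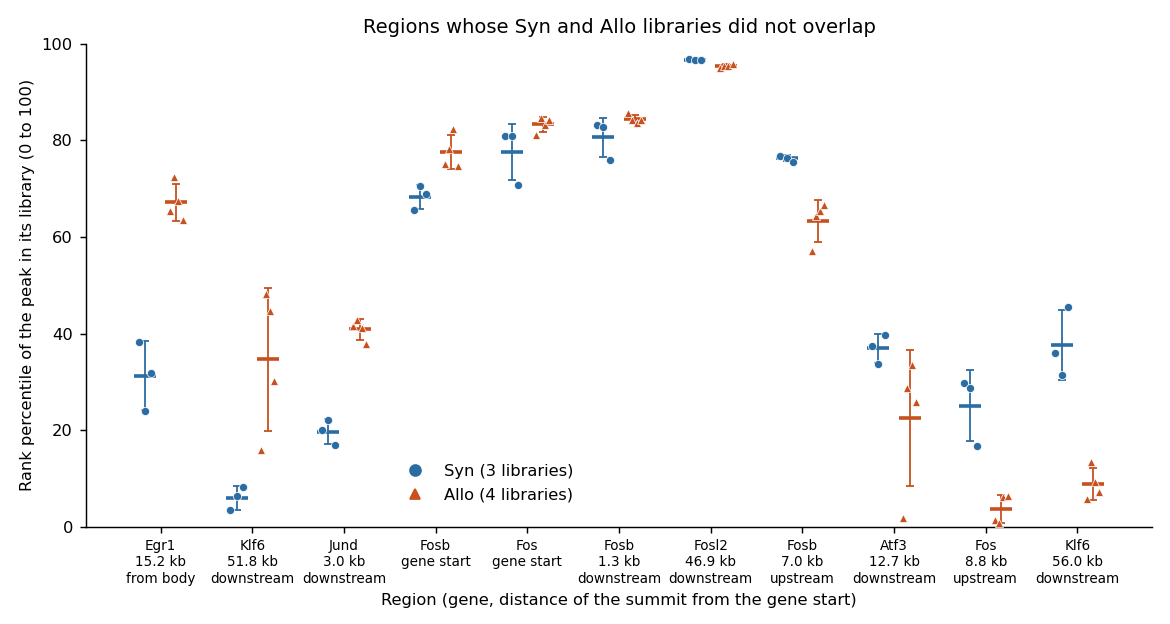
Within-library percentile (vertical axis) in each library at the 11 shared regions whose groups do not overlap, ordered by the mean difference, with circles for Syn, triangles for Allo, thick lines for means and bars for SD. The 6 regions on the left rank higher in Allo and the 5 on the right lower.

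The remaining separated regions lay at Fosb and Fosl2. Around Fosb the start and a neighbour in the gene body ranked higher in Allo, while a region upstream ranked lower. The body region, chr7:19307927-19309089, stood at 83.2, 82.7 and 76.0 in Syn and at 85.7, 84.3, 83.6 and 84.3 in Allo, with a limma adjusted p of 0.617. The upstream region, 6.97 kb before the start at chr7:19316685-19317219, stood at 76.8, 76.5 and 75.6 in Syn and at 57.1, 64.3, 65.4 and 66.6 in Allo. That was a difference of -12.9 points with a limma adjusted p of 0.237 and an exact permutation p of 0.0286. The region was named because its groups were apart, which the permutation p largely restates. The Fosl2 region, 46.9 kb downstream of the start within the lncRNA Gm36732, differed by -1.28 points, from 96.9, 96.7 and 96.6 in Syn to 95.0, 95.4, 95.5 and 95.8 in Allo.

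Away from the starts, Fos, Fosb, Fosl2, Junb and Atf3 each had a region that ranked above the gene's own start in the mean of both settings. The Fosl2 region just described was the best ranked of all, with a mean of 96.0 over the 7 libraries. Fosb had a region 10.1 kb upstream of its start, at chr7:19319521, with means of 95.1 in Syn and 95.2 in Allo. Fos had one 18.5 kb upstream, within the lncRNA Gm38543, at 94.5 and 93.6, and another 12.1 kb downstream at 94.5 and 92.8. The Atf3 region lay 41.6 kb upstream at 89.9 and 90.8, and the Junb region at 69.0 and 68.3. In single libraries the Atf3 region stood below the Atf3 start in Syn 1, at 86.7 against 87.3, and in Allo 1, at 87.2 against 89.1. Jun and Klf6 had no such region above the start: the best stood at 70.0 and 71.3 for Jun, 23.4 kb upstream within the lncRNA Junos, and at 76.6 and 66.8 for Klf6, 29.3 kb upstream. Ranked by fold enrichment, the mean over the 7 libraries went from 94.0 to 62.6 at the upstream Fos region, from 95.2 to 81.2 at the Fosb region and from 68.6 to 8.23 at the Junb region. The 4 distal regions of Fos, Fosb and Fosl2 and the Klf6 start were the 5 regions above the percentile of 90 in every library, 8.47% of the 59 against 9.84% of all shared regions.

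**Figure D4:**
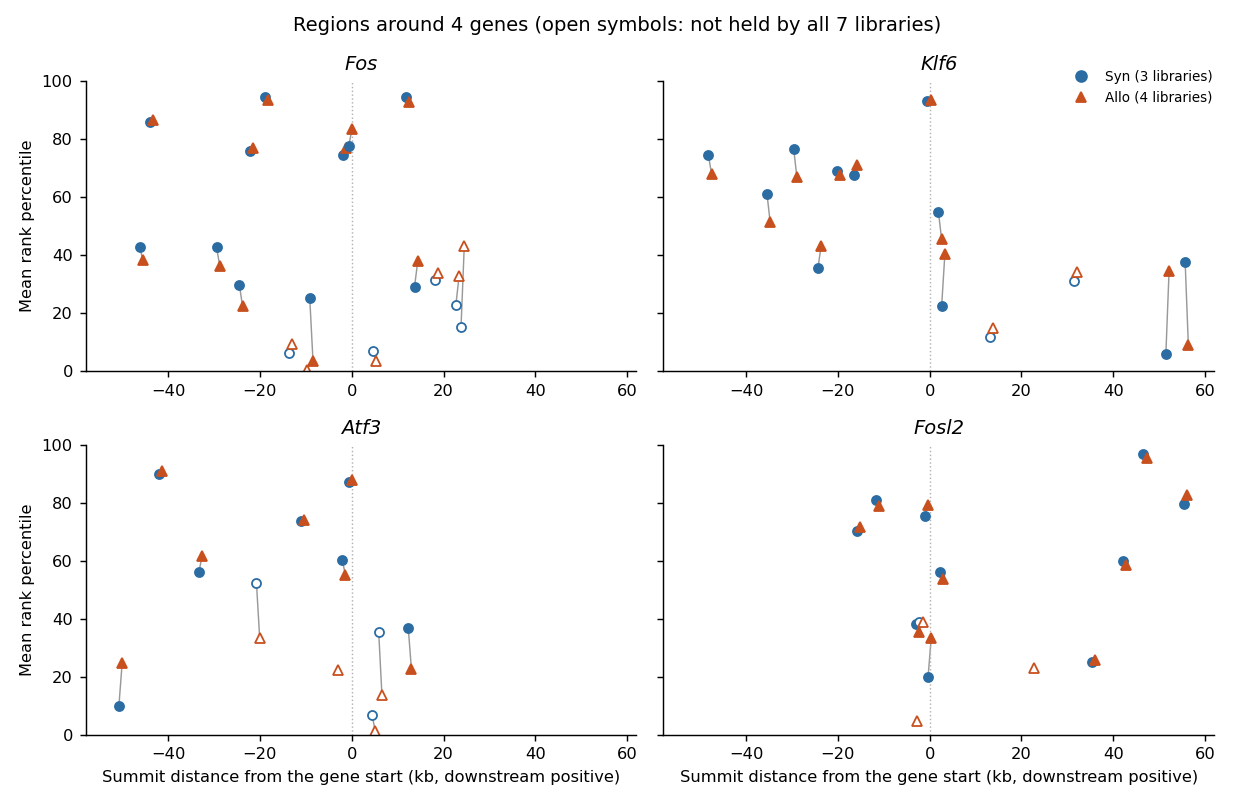
Mean within-library percentile (vertical axis) of each region against the distance of its summit from the gene start in kb (horizontal axis) at Fos, Klf6, Atf3 and Fosl2, with circles for Syn, triangles for Allo, a line joining the pair and open symbols for regions not held by all 7 libraries. Most pairs nearly coincide, and the pair of distal Klf6 regions on the right point in opposite directions.

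By gene, Fos had the most regions, 17, of which 11 were held by all 7 libraries. Fosl2 and Klf6 had 13 each, with 10 and 11 held by all. Atf3 had 11 with 7, Jun 10 with 4, Fosb 8 with 7, Jund 5 with 3, Junb 4 with 3, Egr1 3 with 2 and Fosl1 2 with 1. Jun thus had the most regions that some libraries lacked beside Fos, with 6 at each gene. Peaks per library at Jun were 8, 8 and 8 in Syn and 7, 5, 8 and 6 in Allo. At Fos they were 16, 17 and 14 in Syn and 15, 16, 17 and 16 in Allo. The counts overlapped between the groups at both genes.

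The span of the summits of a shared region over the 7 libraries had a median of 76 bp, and it was at most 100 bp in 36 of the 59 regions and up to 553 bp in the other 23. Over all shared regions the median was 71 bp. In 4 of the 59, or 6.78%, the summits of the groups did not overlap in position, as in 5.87% of all shared regions. At the Fosb start the summit lay 325 to 363 bp upstream of the start in all 7 libraries, at Atf3 197 to 245 bp upstream, at Klf6 107 to 159 bp and at Junb 111 to 121 bp. The Fos summits fell at 2 places: within 53 bp of the start in Syn 1, Syn 3, Allo 1, Allo 3 and Allo 4, and 331 and 320 bp upstream in Syn 2 and Allo 2. Both places were used in both groups. At the Egr1 end region the Syn summits spanned 11 bp and the Allo summits 318 bp, with a mean shift of -232 bp in genome coordinates from Syn to Allo and an exact permutation p of 0.114. The summits spanned 389 bp at the Fosl2 start and 278 bp at the Jun start.

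The 4 regions with summits apart were chosen after their values were seen, so their permutation p-values largely restate that choice. One, at chr4:95068177-95069053 upstream of Jun, had its summits 16306, 16309 and 16560 bp before the start in Syn and 16199, 16230, 16221 and 16220 bp before it in Allo, with an exact permutation p of 0.0286. The strongest upstream Fos region had its summits 18490, 18447 and 18457 bp before the start in Syn and 18551, 18493, 18509 and 18498 bp in Allo, also with an exact permutation p of 0.0286. The others were the Fos region 8.80 kb upstream and the Fosb region 10.1 kb upstream, with an exact permutation p of 0.0571 each.

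Just inside the distance limit of 50 kb lay the Klf6 region at 47.1 kb described above, another Klf6 region at 47.8 kb with percentiles of 57.7 to 75.5, and an Atf3 region at 49.5 kb. Just outside lay a Klf6 region at 50.1 kb with percentiles of 53.1 to 74.9, a Fos region at 50.8 kb with 27.3 to 72.4 and an Atf3 region at 53.0 kb with 33.2 to 54.4.

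The starts of 49 other genes of the pathway were read in the same way. A region over the start was held by all 7 libraries at 46 of them, 0 passed limma, and every Allo library ranked above every Syn library at 6 and below at 1, patterns found at 8.30% and 2.42% of all gene starts. Among the 9 zipper partners, 8 had such a region and none separated the groups, with a median difference of 1.27 points. The largest differences there were at Batf3, Jdp2, Mafk and Maff, from -2.27 to 5.84 points. All 14 upstream kinases and factors had one, and 2 ranked higher and 1 lower in every Allo library. The differences in this list had a median of 0.511 points and ran from -9.32 to 12.6 points. Atf1, a factor that binds cyclic AMP response elements, stood at 63.2 in Syn and 75.8 in Allo on average, and Mapk3, an ERK kinase, at 69.1 and 79.7. Of 18 other immediate early genes 17 had a region and 3 ranked higher in every Allo library. The differences in this list had a median of 1.48 points and ran from -5.52 to 8.09 points. One of the 3 was Dusp1, a phosphatase of MAP kinases, at 88.5 and 90.5. Of 8 genes known as AP-1 targets 7 had one, and Vegfa alone ranked higher in every Allo library, at 72.4 and 77.6. Ccnd1, the cyclin D1 gene, differed by 11.8 points with overlapping groups, and the differences in this list ran from -0.126 to 11.8 points. Atf1, Mapk3, Dusp1, Vegfa and Ccnd1 were thus all higher in Allo, while other genes of their lists were lower. Timp1 had a start region in 2 Syn libraries alone, and Batf and Egr3 had none.

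The genes whose start percentiles were most like those of 3 members were found among 12574 genes over the 7 libraries, by the mean absolute difference. For Fos these were Hsp90ab1 at 1.29 points and Mapkapk5 at 1.58 points. For Jun they were Erfe at 1.28 and Zfp219 at 1.303 points, and for Atf3 they were Slc25a39 at 0.704 and H2bc6 at 0.711 points. The 7 points of each gene share their libraries.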

How the data were processed

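The libraries were made with Omni-ATAC and sequenced as paired reads of 150 nt, per the labels. Trim Galore, Bowtie2, MACS2, MACS3 and mm10 are named in the submitters' processing notes, and their roles, versions and peak threshold are not given in the sources used here. Deposited peak lists, 1 per library, give by their narrowPeak format a score, a fold enrichment at the summit as a ratio, and a −log10 p-value and −log10 q-value for each peak. The lowest deposited −log10 q-value was 1.304 to 1.42 by library. The values are the authors', normalized within a library by their caller, so levels were compared as ranks, which a longer or deeper list shifts.

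Peaks on chromosomes 1 to 19 and X were merged at 1 bp overlap, and a region took the percentile of the best peak of each library in it. Genes, starts and sequences came from RefSeq tables (GRCm38.p6). Logit percentiles (log2 odds) of all 50324 regions held by all 7 libraries were fitted with limma 3.58.1 in R 4.3.3 (moderated test, Benjamini-Hochberg adjustment over all regions, threshold 0.05). Exact two-sided permutation tests over the 35 relabellings were run with Python 3.11.15 (scipy 1.17.1, pandas 2.3.3, numpy 2.4.6) for single regions and are not adjusted. For regions named for groups apart or for a large difference, the permutation p largely restates that choice. The fit was tested on simulated data.

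The members and gene lists were chosen with earlier results of these data known. The text names all 10 members with their start region and best region away from it, regions held by 1 group or past the threshold, the 3 largest differences each way and up to 4 examples of each pathway list. Values of 1 pathway gene are not reported here, though the list counts include it. The other regions named, those missing from some libraries or with groups apart, were chosen after their values were seen. So were the markers and pathway examples given with values. The alternatives tried were a stricter threshold, lists of matched length, ranks among shared regions, ranks by fold, an unlogged scale, other overlap and distance rules, a replicate block, and omitted libraries.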

Additional observations from a re-analysis of the deposited data

Results flagged for a closer look

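Sets of 4 Allo values were searched for a library far from the others by Dixon's test at the 95% level, and 5 of 36 sets had one, where chance gives about 1 in 20 for continuous values. That rate does not apply to the 3 sets of peak counts among the 5, since a set with 3 equal counts and 1 other always passes. Allo 1 had 3 Junb peaks and the other Allo libraries 4 each. Allo 2 had 5 Jund peaks and the others 4 each. Allo 3 had 3 Egr1 peaks and the others 2 each. At the Jun region 23.4 kb upstream of the start, Allo 1 stood at a percentile of 58.9, below the other 3 Allo libraries. At the Klf6 start Allo 2 stood at 96.7, above the others at 92.8, 92.1 and 92.6.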

How the results depend on the processing

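The number of member regions past the limma threshold was 0 in the main analysis, 3 with ranks among shared regions only, 2 on the percentile scale, 2 without Allo 1 and 2, and 1 with a trended spread, an alternative chosen after seeing the data. It was 0 under the other alternatives and from 0 to 0 with each library left out. The 6 regions with Allo above Syn became 3 with matched list length, 3 ranked by fold, 11 without Allo 3 and 4, 19 without Allo 1 and 2, and 7 to 11 with 1 library left out. The 5 with Allo below became 2 at the stricter threshold, 3 with 50% coverage, 3 within 10 kb, 11 without Allo 3 and 4, 9 without Allo 1 and 2, and 5 to 7 with 1 left out. The 0 regions held by 1 group became 2 at the stricter threshold, 2 with matched length, 2 without Allo 3 and 4, and 0 to 1 with 1 left out, the 1 being without Syn 3 or without Allo 3. Gene starts past the threshold were 0 under every alternative run. The share of all regions past the threshold, with groups apart or held by 1 group is not given for each alternative. These counts therefore cannot be set against a background, and fewer libraries are easier to separate.

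Start differences in points that changed sign were those of Atf3 (-0.0811 with ranks among shared regions, -0.0674 with matched length, -4.26 by fold, -0.423 without Allo 1 and 2), Junb (-0.0555 by fold), Fosl1 (-0.325 by fold, -3.85 without Allo 3 and 4), Klf6 (-3.67 by fold, -0.834 without Allo 1 and 2) and Egr1 (2.93 without Allo 3 and 4). With 1 library left out, Fosl1 ran from -1.22 to 3.02, Klf6 from -0.932 to 1.45 and Egr1 from -3.22 to 0.889. The cause was not tested.

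With the replicate number as a block, 0 of the 59 regions and 0 gene starts passed. Same-numbered libraries correlated in their deviations at 0.0519, -0.0301 and 0.0656, so the numbers were not taken as pairs, and not every library correlated best with its own number. Read depth is unknown, so a weak peak missing from a list cannot be told apart from one below its threshold, and 3 against 4 libraries limit the precision.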

Other observations

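The body region of Jund stood at a mean percentile of 78.6 by −log10 q-value and of 16.0 by fold enrichment, the Atf3 region 41.6 kb upstream at 90.4 and 83.9. The Fosl2 region 46.9 kb downstream stood at 96.0 and 89.9.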
